A study of Oryza sativa with 12 samples.

Results

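The transcripts described here lie in an interval of rice chromosome 5 around Prl5, a quantitative trait locus for the length of the panicle rachis. They are the transcripts of the Rice Annotation Project whose identifier starts with Os05t and whose number runs from Os05t0380000 to Os05t0480000, without 2 loci, among them the gibberellin 20-oxidase gene OsGA20ox4. The numbers follow the order of the loci along the chromosome, so the transcripts can be read as a map. The interval holds 708 of the 40722 transcripts in the table, which belong to 592 of 34126 loci. A filter on low counts kept 571 of them (463 loci) for testing, and the 137 others had at most 20 counts in any library. The interval was chosen with the values of the lines that carry the chromosome 5 segment already known, so every comparison of these lines with Koshihikari is given as a description.

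RNA of young panicles at the 2-mm stage was sequenced from 4 lines with 3 libraries each, 12 in all. NIL-Prl5ST-1 carries the chromosome 5 segment of the long-panicled accession ST-1, NIL-Prl5ST-1 + Pbl6ST-1 (the double line) carries this segment and a segment of chromosome 6 that holds Pbl6 (APO1), and NIL-Pbl6ST-1 carries the chromosome 6 segment alone. Koshihikari, labelled WT, is the recurrent parent of all of them. The lines are near-isogenic: they were picked with simple sequence repeat markers after repeated backcrossing to Koshihikari. The methods speak of biological replicates for all experiments, but neither they nor the labels say which plants or pools of panicles gave the libraries of a line, so P values measure only the spread between these samples.

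The libraries held 16041196 to 31760529 counts, and 3 counts, taken as the floor of detection in a library, were worth 0.0971 to 0.192 cpm. This unit gives levels scaled to the total counts of a library times its TMM normalisation factor. The 5 panicle markers were present in every library, with PAP2 at 74.0 to 90.9 cpm and OsMADS15 at 225 to 294 cpm. A list of 69 transcripts of green tissue summed to 349 to 445 cpm in NIL-Prl5ST-1, 260 to 303 cpm in the double line, 247 to 260 cpm in NIL-Pbl6ST-1 and 266 to 383 cpm in Koshihikari. On the first principal component, which held 35.6% of the variance, replicate 2 of NIL-Prl5ST-1 lay at 23.4, against 60.4 and 62.2 for its other replicates, and replicate 2 of Koshihikari lay at 28.8, against -5.95 and 4.25. The part of green tissue and of these libraries in the results below was not tested, beyond the values without them.

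A near-isogenic line carries a donor segment that is longer than the locus it was selected for, and the ends of that segment are set by crossovers during backcrossing. Within the segment every gene has the donor allele, including alleles that lack a gene, carry another promoter or differ in sequence from the reference. Reads are counted on the transcripts of a reference genome, so a donor allele that is missing from the genome and one whose reads do not match the reference both appear as low counts.

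In the comparison of the double line with NIL-Pbl6ST-1, which differ in the chromosome 5 segment by their labels, calls inside and outside the interval were counted. Of the 571 tested members, 87 (15.2%) were called at an adjusted P below 0.05 (edgeR quasi-likelihood test, Benjamini-Hochberg over all 31643 transcripts tested), 28 higher and 59 lower in the double line. Over all transcripts tested 0.777% were called, 0.382% higher and 0.395% lower. The share was 1.32% on the rest of chromosome 5 and 0.455% on the other chromosomes. The median log2 fold change was -0.04 over the members and 0.01 over all transcripts. Among members, 42 (7.36%) were called with a change of at least 2-fold, against 0.243% of all transcripts. As the double-line libraries were known when the interval was chosen, its higher share is a description and nothing is read from it. Without replicate 1 of NIL-Pbl6ST-1, 50 members were called.

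**Figure D1:**
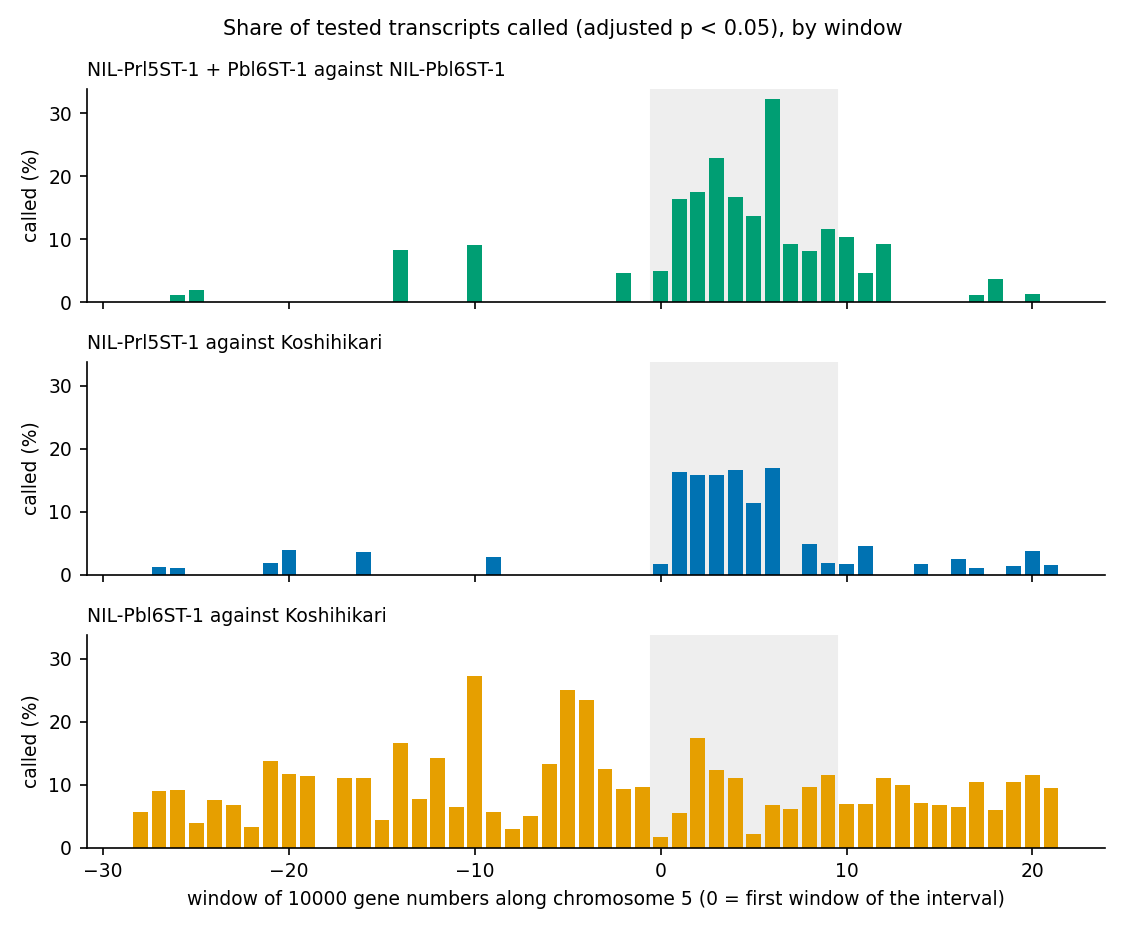
Share of tested transcripts called at an adjusted P below 0.05 (y axis, percent) in windows of 10000 gene numbers along chromosome 5 (x axis, 0 is the first window of the interval, shaded) for the double line against NIL-Pbl6ST-1, NIL-Prl5ST-1 against Koshihikari and NIL-Pbl6ST-1 against Koshihikari. In the top panel the bars reach 32.2% inside the interval and continue at 4.65% to 10.3% in the 3 windows to its right, while the bottom panel shows called transcripts all along the chromosome.

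Along the chromosome, the calls between the double line and NIL-Pbl6ST-1 began near the left limit. The leftmost called member was Os05t0389300-01, similar to SAD1, with 60.0, 60.9 and 58.2 cpm in the double line, against 78.4, 73.5 and 74.9 cpm in NIL-Pbl6ST-1 (log2 fold change -0.34, adjusted P = 0.0375). The next, Os05t0389400-01, a member of the biopterin transport-related BT1 family, was also lower (log2 fold change -0.57, adjusted P = 0.015). Neither call held in every subset of libraries: that of Os05t0389300-01 was lost without any 1 library other than replicate 2 of the double line, and that of Os05t0389400-01 was lost without replicate 1 or replicate 3 of NIL-Pbl6ST-1 or replicate 1 of the double line. None of the 51 tested members to their left was called, although 13 had an unadjusted P below 0.05, where 15.9% of all transcripts did, and DESeq2 called 1. The largest share of calls, 19 of 59 tested members (32.2%), lay in the window that starts at Os05t0440000, followed by 13 of 57 (22.8%) in the window that starts at Os05t0410000.

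When the interval was divided at limits chosen after the calls were seen, 70 of 333 members (21.0%) were called between the double line and NIL-Pbl6ST-1 from Os05t0389300 to Os05t0449100, and 17 of 187 (9.09%) from there to Os05t0480000. To the right of the interval, up to Os05t0507400, 15 of 181 transcripts (8.29%) were still called. Beyond Os05t0507400, 5 of the next 664 transcripts (0.753%) were called, and 3 of 357 transcripts (0.84%) were called in the stretch left of the interval from Os05t0280000. In this comparison the stretch in which calls were dense ran on past the right limit of the interval. In NIL-Prl5ST-1 against Koshihikari the same 3 sections held 53 of 333 (15.9%), 4 of 187 (2.14%) and 5 of 181 (2.76%) called. Among the calls right of the interval, Os05t0501001-01 had 185, 85 and 68 counts in NIL-Pbl6ST-1 and 30, 0 and 0 in the double line. It had 0, 1 and 0 counts in NIL-Prl5ST-1 and 0 in each Koshihikari library. It passed the filter only through NIL-Pbl6ST-1, so its call is a description. Os05t0506000-01 was at 153%, 185% and 174% of the Koshihikari mean in NIL-Pbl6ST-1 and at 119%, 84.4% and 103% in the double line.

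A few members were present in Koshihikari and absent, or nearly so, in the lines with the segment. A transcript was called lost where it had at least 10 counts in each Koshihikari library and at most 3 counts in each library of the line. By this count, which is a description because the interval was chosen on such values, 10 of 543 members (1.84%) were lost in NIL-Prl5ST-1, against 0.06% of all transcripts with those counts, and 11 (2.03%) were lost in the double line, against 0.07%. None of the 543 was lost in NIL-Pbl6ST-1, where the share over all transcripts was 0.0367% and where 2 members, both of Os05t0427200, were lost once replicate 1 was left out. The 14 transcripts lost in either line belonged to 12 loci, 7 of them (5 loci) were lost in both, and none of the 1934 other transcripts of chromosome 5 with at least 10 counts in each Koshihikari library was lost in either. In bulk tissue fewer cells of a type and less RNA per cell cannot be told apart. Of the 14 lost transcripts 10 (71.4%) were annotated only as hypothetical or non-coding, against 29.6% of the 571 tested members. The rule for lost transcripts fixes their low side, and those at 0 passed the filter only through the other lines. Differences of a line in which a transcript was lost are therefore given as counts and lower bounds, with no test.

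The transcripts lost in both lines lay between Os05t0412400 and Os05t0441750. The most abundant was Os05t0439200-01, a hypothetical protein, with 0 counts in each of the 6 libraries of NIL-Prl5ST-1 and the double line, against 1188, 841 and 629 counts in NIL-Pbl6ST-1 and 893, 1172 and 865 counts in Koshihikari. No library with the chromosome 5 segment came near a library without it. At a floor of 3 counts per library its level was at least 353-fold lower in NIL-Prl5ST-1 than in Koshihikari, and at least 295-fold lower in the double line than in NIL-Pbl6ST-1.

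Next to each other lay Os05t0412300-01, an HMG-I and HMG-Y protein of the group that binds AT-rich DNA, and Os05t0412400-01, a conserved hypothetical protein. Os05t0412400-01 had 2, 0 and 1 counts in NIL-Prl5ST-1 and 1, 0 and 0 in the double line, against 898, 635 and 442 in NIL-Pbl6ST-1 and 635, 823 and 680 in Koshihikari. Os05t0412300-01 had 2, 0 and 4 counts in NIL-Prl5ST-1 and 1, 0 and 1 in the double line, against 788, 541 and 387 in NIL-Pbl6ST-1 and 552, 689 and 604 in Koshihikari. Both were near 0 in all libraries with the segment, and only the 4 counts in replicate 3 kept Os05t0412300-01 off the list for NIL-Prl5ST-1. In the double line they were at least 189-fold (Os05t0412300-01) and 218-fold (Os05t0412400-01) lower than in NIL-Pbl6ST-1. The member just to their left, Os05t0412000-00, a homeodomain-related transcript, was at 106% to 129% of the Koshihikari mean in the double line and was called in no comparison.

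Both transcripts of Os05t0414400, which encodes a protein with a DUF659 domain, were at 0 in all 6 libraries with the segment. Os05t0414400-01 had 116, 103 and 88 counts in NIL-Pbl6ST-1 and 182, 144 and 300 in Koshihikari, and Os05t0414400-02 had 148, 155 and 118 in NIL-Pbl6ST-1 and 232, 218 and 370 in Koshihikari. How reads were divided between transcripts of a locus is not given in the sources used here. Os05t0441500-01 and Os05t0441500-02, of a conserved hypothetical protein, behaved in the same way, with at most 1 count in any library with the segment. Here the line without the segment was itself lower than its parent, since Os05t0441500-01 had 57, 52 and 26 counts in NIL-Pbl6ST-1, against 104, 137 and 147 in Koshihikari (log2 fold change -1.44, adjusted P = 0.001). The last of the 7, Os05t0441750-00, was at 0 in all libraries with the segment, against 18, 9 and 5 counts in NIL-Pbl6ST-1 and 19, 21 and 10 in Koshihikari, so that its loss rests on few counts. It was at least 3.37-fold lower in the double line than in NIL-Pbl6ST-1, which is a description with no test.

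**Figure D2:**
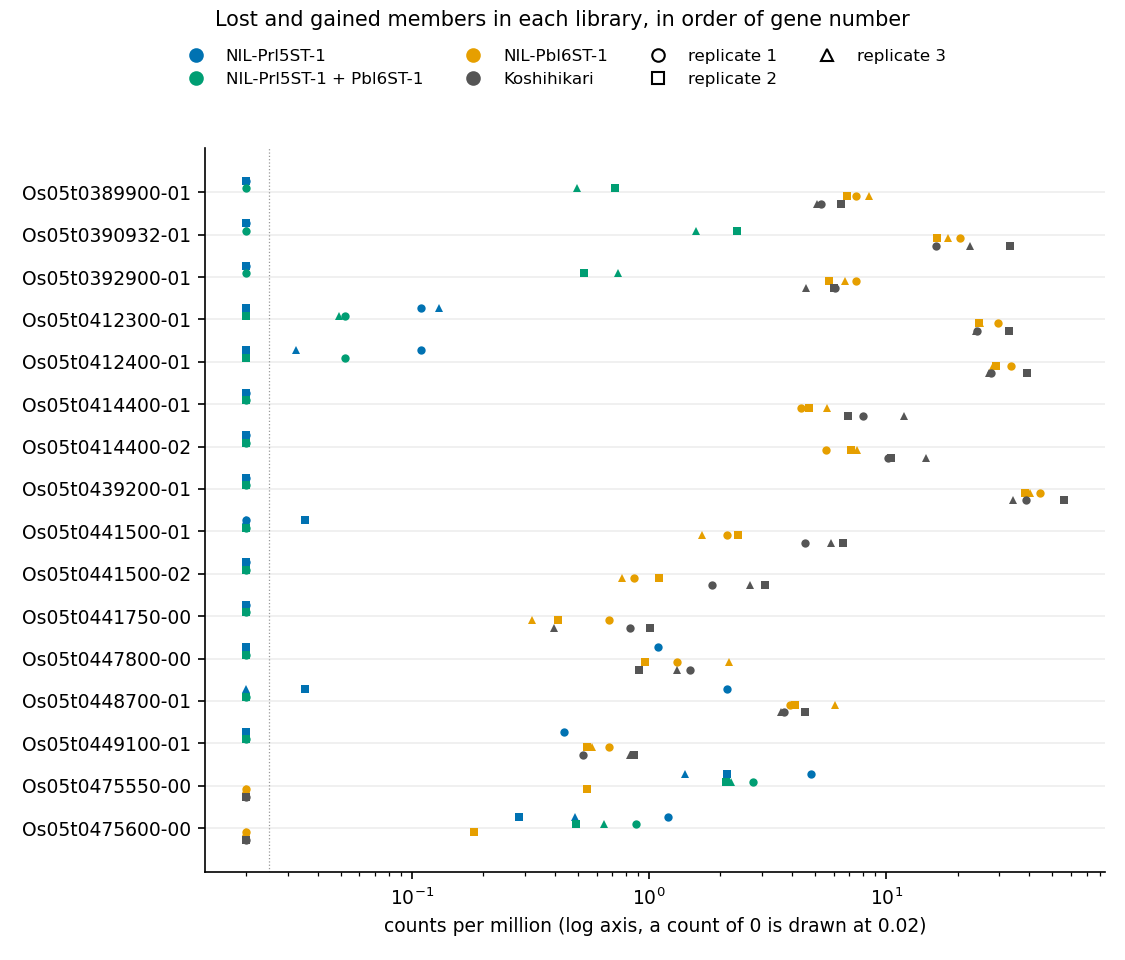
Level of each lost or gained member in each of the 12 libraries (x axis, cpm on a log scale, with a count of 0 drawn at 0.02), in order of gene number from top to bottom, coloured by line and shaped by replicate. The 7 transcripts lost in both lines show all 6 libraries with the segment at or near the left edge, while at Os05t0389900-01 to Os05t0392900-01 and at Os05t0447800-00 to Os05t0449100-01 single libraries of a line stand apart from its others.

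At the left end of the lost transcripts the libraries of the double line did not behave alike. Os05t0389900-01, a hypothetical gene, was the first lost transcript of NIL-Prl5ST-1, with 0 counts in all its libraries and 0, 19 and 10 counts in the double line, against 198, 149 and 132 in NIL-Pbl6ST-1 and 121, 134 and 129 in Koshihikari. Os05t0390932-01 had 0 counts in all NIL-Prl5ST-1 libraries and 0, 62 and 32 in the double line, against 545, 357 and 285 in NIL-Pbl6ST-1 and 370, 694 and 567 in Koshihikari. Os05t0392900-01 likewise had 0 counts in NIL-Prl5ST-1 and 0, 14 and 15 in the double line, against 199, 125 and 105 in NIL-Pbl6ST-1 and 139, 126 and 116 in Koshihikari. At all 3 loci replicate 1 of the double line was at 0 like NIL-Prl5ST-1, and replicates 2 and 3 held 6.59% to 13.3% of the Koshihikari mean. The groups did not overlap, with fitted log2 fold changes of -4.10, -3.71 and -3.91 in the double line against NIL-Pbl6ST-1. The 3 transcripts passed the filter only through NIL-Pbl6ST-1 and Koshihikari, so this is a description, with no test. They were also the 3 members with the largest fitted difference between the double line and NIL-Prl5ST-1, higher in the double line. No test is read from this, since being lost fixed their low side in NIL-Prl5ST-1.

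The members beside the first lost transcript were not lost. Os05t0389800-01, similar to a DEAH-box RNA helicase, had 0.929, 0.955 and 1.07 cpm in NIL-Prl5ST-1 and 1.35, 1.47 and 1.24 cpm in the double line, against 2.14, 1.74 and 1.47 cpm in NIL-Pbl6ST-1 and 1.57, 1.05 and 1.19 cpm in Koshihikari, and it was called in no comparison. Os05t0390000-01, on the other side, was at 48.8%, 51.8% and 49.7% of the Koshihikari mean in NIL-Prl5ST-1 and at 81.7%, 85.0% and 54.7% in the double line. In order along the tested members, lost and gained transcripts spanned 486 of the 571 in NIL-Prl5ST-1, from Os05t0389900-01 (the 60th) to Os05t0475550-00 (the 545th), and 358 in the double line, from Os05t0412300-01 (the 189th) to Os05t0475600-00 (the 546th). At the left the spans differed because replicates 2 and 3 of the double line held 10 to 62 counts at the first 3 loci. At the right Os05t0475600-00 was gained in the double line only, as replicate 2 of NIL-Prl5ST-1 was below the 10 counts needed.

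At the right end of the lost transcripts it was a library of NIL-Prl5ST-1 that stood apart. Os05t0448700-01, a conserved hypothetical protein, had 39, 1 and 0 counts in NIL-Prl5ST-1 and 0 in all libraries of the double line, against 105, 90 and 95 in NIL-Pbl6ST-1 and 85, 95 and 91 in Koshihikari. Its neighbours showed the same order of libraries, since Os05t0447800-00 had 20, 0 and 0 counts in NIL-Prl5ST-1 and Os05t0449100-01 had 8, 0 and 0, and both were at 0 throughout the double line. In replicate 1 of NIL-Prl5ST-1 these 3 transcripts were at 88.4%, 53.8% and 59.0% of the Koshihikari mean in map order, whereas replicates 2 and 3 held at most 1 count of any of them. In the double line all 3 were lost, at least 10.7-fold, 33.9-fold and 4.31-fold lower in map order than in NIL-Pbl6ST-1. The fits of NIL-Prl5ST-1 against Koshihikari called none of them.

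Transcripts gained in the lines with the segment were fewer. A gained transcript had at least 10 counts in each library of the line and at most 3 in each Koshihikari library. By this count 1 of 521 members (0.192%) was gained in NIL-Prl5ST-1, against 0.00664% of all transcripts with those counts, and 2 of 511 (0.391%) were gained in the double line, against 0.0135%. None of 525 was gained in NIL-Pbl6ST-1, where the share over all was 0.0103%. Such members passed the filter only through the lines in which they were high, so their differences are given as counts, with no test. Without replicate 2 of Koshihikari, 3 members were gained in NIL-Prl5ST-1 and 4 in the double line, and without replicate 2 of NIL-Prl5ST-1 or replicate 1 of Koshihikari, 2 members were gained in NIL-Prl5ST-1.

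Both gained transcripts lay side by side near the right limit. Os05t0475550-00, a non-coding transcript, had 88, 60 and 44 counts in NIL-Prl5ST-1 and 53, 56 and 45 in the double line, against 0, 12 and 0 in NIL-Pbl6ST-1 and 0 in each Koshihikari library. Os05t0475600-00, a hypothetical conserved gene, had 22, 8 and 15 counts in NIL-Prl5ST-1 and 17, 13 and 13 in the double line, against 0, 4 and 0 in NIL-Pbl6ST-1 and 0 in each Koshihikari library. All libraries with the segment were above all libraries without it, and replicate 2 of NIL-Pbl6ST-1 was the only library without it that held counts. Against the floor of 3 counts per library, the level of Os05t0475550-00 exceeded that of Koshihikari by at least 21.2-fold in NIL-Prl5ST-1 and by at least 18.0-fold in the double line, and Os05t0475600-00 exceeded it by at least 5.12-fold in the double line. Their neighbours Os05t0475475-00 and Os05t0476100-01 were present in all 12 libraries, and of these only Os05t0475475-00 was called between the double line and NIL-Pbl6ST-1, at a log2 fold change of 0.58 (adjusted P = 0.0432), a call that was lost without any 1 library other than replicate 2 of the double line.

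Read in each library alone, a reading added after the data were seen, 18, 15 and 17 of the 543 members with at least 10 counts in each Koshihikari library had at most 3 counts in the replicates of NIL-Prl5ST-1, 18, 13 and 12 in those of the double line and 0, 3 and 2 in those of NIL-Pbl6ST-1. Among transcripts of chromosome 5 left of the interval, 0, 0 and 0 were so low in NIL-Prl5ST-1, 1, 1 and 1 in the double line and 0, 3 and 3 in NIL-Pbl6ST-1. Right of it the numbers were 0, 1 and 0, then 0, 6 and 5, then 1, 0 and 4 in the same order of lines. Shares over all transcripts were not counted library by library, so these numbers are a description. In replicate 3 of NIL-Prl5ST-1 the members with at most 3 counts began further left than in the other libraries. There Os05t0380400-01, a conserved hypothetical protein and the second tested member, had 50, 23 and 2 counts in NIL-Prl5ST-1 and 43, 66 and 40 in the double line, against 61, 36 and 32 in NIL-Pbl6ST-1 and 34, 42 and 48 in Koshihikari. Os05t0382550-01 had 115, 75 and 4 counts in NIL-Prl5ST-1, against 88, 104 and 101 in Koshihikari, and Os05t0380700-01, Os05t0382400-01 and Os05t0382500-01, the last similar to a cytochrome P450 of the CYP94 family, were at 0 in replicate 3 alone. These values were seen in 1 library, and none of the 5 transcripts was called in any comparison.

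**Figure D3:**
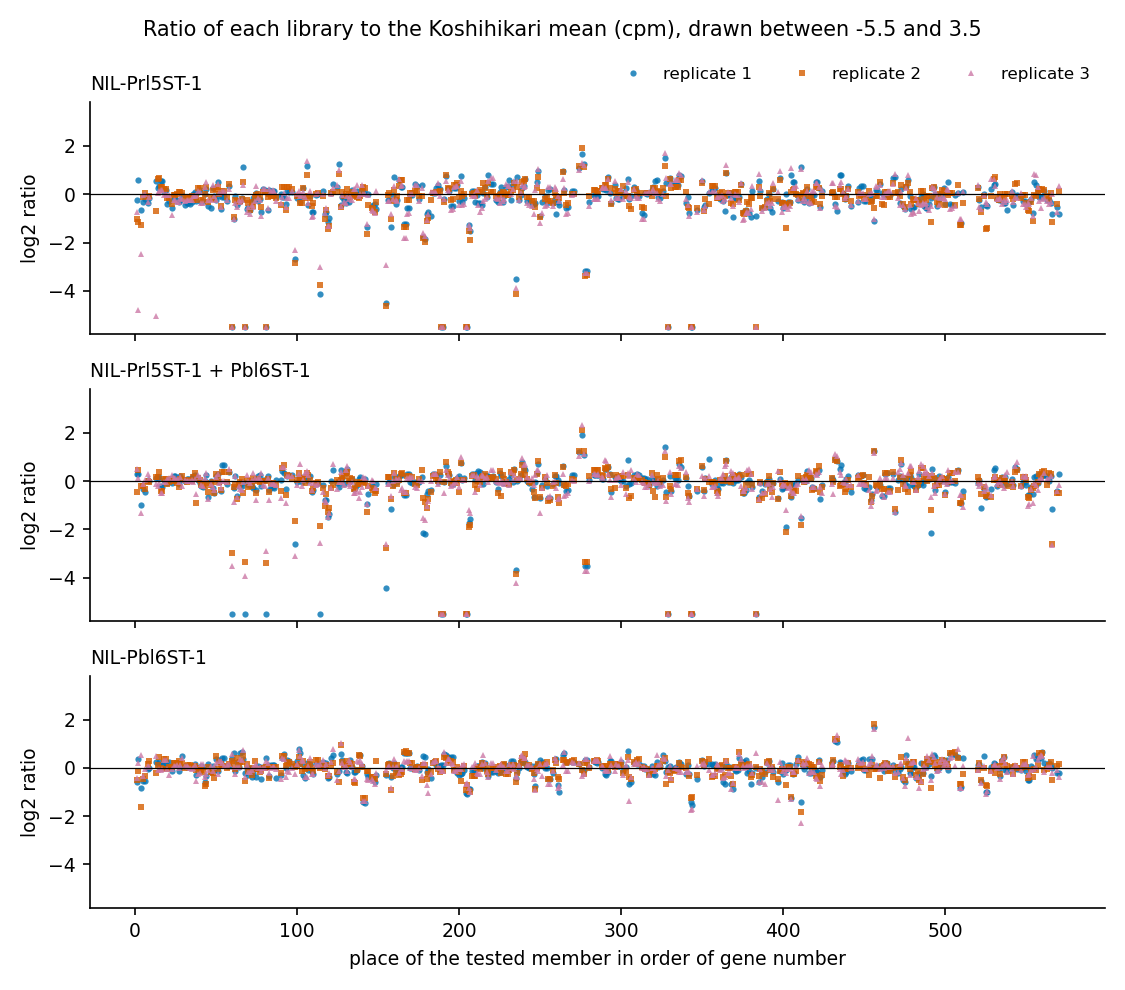
Ratio of each library to the Koshihikari mean (y axis, log2 of the ratio of cpm, with lower ratios drawn at the bottom edge) for tested members with at least 30 counts in each Koshihikari library, placed by gene number (x axis), for NIL-Prl5ST-1, the double line and NIL-Pbl6ST-1. Points at the bottom edge appear in the 2 upper panels and not in the lowest. They include lost transcripts and transcripts that were low in some libraries of a line only, such as Os05t0448700-01 with 39, 1 and 0 counts in NIL-Prl5ST-1.

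Members with at least 30 counts in each Koshihikari library were also counted in each library. The sections were those with limits chosen from the same libraries, so these counts are a description and no separate support for the ends. From Os05t0389300 to Os05t0449100, 16, 17 and 17 of 283 members were below 25% of the Koshihikari mean in NIL-Prl5ST-1 and 19, 15 and 17 in the double line, and none was in NIL-Pbl6ST-1. To the left, in the first 43 members of the interval, 0, 0 and 3 were below 25% in NIL-Prl5ST-1 and none in the other lines. Between Os05t0449100 and Os05t0480000 none of 148 was below 25% in NIL-Prl5ST-1, 1, 2 and 1 were in the double line and 0, 0 and 1 in NIL-Pbl6ST-1. Left of the interval, from Os05t0280000, the numbers of 301 transcripts were 0, 0 and 0 in NIL-Prl5ST-1, 0, 1 and 1 in the double line and 2, 4 and 1 in NIL-Pbl6ST-1. Beyond Os05t0507400 those of 554 were 0, 0 and 0, then 0, 1 and 0, then 2, 1 and 2 in the same order of lines.

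To the right of the interval, libraries of the double line held further transcripts with few counts. Os05t0480500-01, a hypothetical protein just outside the limit, had 13, 0 and 0 counts in the double line and 22, 23 and 54 in NIL-Prl5ST-1, against 50, 26 and 23 in NIL-Pbl6ST-1 and 48, 60 and 48 in Koshihikari. Os05t0498366-00 had 30, 0 and 0 counts in the double line and 25, 38 and 67 in NIL-Prl5ST-1, against 110, 44 and 43 in NIL-Pbl6ST-1 and 101, 107 and 95 in Koshihikari. Os05t0507400-01, the last of them, had 70, 0 and 1 counts in the double line and 123, 102 and 222 in NIL-Prl5ST-1, against 271, 169 and 132 in NIL-Pbl6ST-1 and 260, 312 and 263 in Koshihikari. In these cases replicates 2 and 3 of the double line were at or next to 0 and replicate 1 was not, which is the reverse of the order at Os05t0389900 to Os05t0392900. Other transcripts with at most 3 counts in a library of the double line were mixed. Os05t0505383-01 (13, 0 and 0 counts) and Os05t0498900-01 (15, 3 and 4) had this order, whereas Os05t0492200-01 (9, 2 and 14) and Os05t0495000-00 (8, 9 and 2) did not. The fit called Os05t0507400-01 (log2 fold change -2.98) and Os05t0505383-01 (-3.89) lower in the double line than in NIL-Pbl6ST-1, and not Os05t0480500-01 or Os05t0498366-00. These transcripts were listed for low counts in the double line, so this is a description and no test is read from it. Os05t0498366-00 was called lower in NIL-Prl5ST-1 than in Koshihikari (-1.42, adjusted P = 0.0201, edgeR). By the count over libraries, 2, 7 and 7 of 152 transcripts to the right of the interval were below 25% of the Koshihikari mean in the double line, 1, 1 and 0 in NIL-Prl5ST-1 and none in NIL-Pbl6ST-1. The right limit of this section was set by the last such transcript of the double line, so these counts too are a description.

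The transcripts just inside and just outside the limits are given as a description, with no test. On the left, Os05t0380300-01, similar to a fragment of an NBS-LRR protein, was at 84.5%, 49.2% and 60.0% of the Koshihikari mean in NIL-Prl5ST-1 and at 122%, 73.1% and 140% in the double line, and outside the limit Os05t0379500-01 was at 98.6%, 67.5% and 89.3% in NIL-Prl5ST-1 and at 107%, 79.5% and 118% in the double line. On the right, Os05t0479900-01, a DUF3133 protein, was at 69%, 75.9% and 59.3% in NIL-Prl5ST-1 and at 75.5%, 71.6% and 74.9% in the double line, and both transcripts of the kinase gene Os05t0480000 were between 55.9% and 165%. Outside, Os05t0480400-01, another protein kinase gene, was at 72.3%, 87.3% and 68.0% in NIL-Prl5ST-1 and at 114%, 114% and 111% in the double line, and Os05t0480500-01 was at 52.4%, 35.5% and 76.2% in NIL-Prl5ST-1 and at 29.5%, 0% and 0% in the double line.

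Between the lost transcripts lay members that were shifted in level and not lost. Of the 87 members called between the double line and NIL-Pbl6ST-1, 71 (62 loci) were neither lost nor gained, 26 higher and 45 lower in the double line, with 9 and 17 of them changed at least 2-fold and a median absolute log2 fold change of 0.78. In all 71 the libraries of the double line and of NIL-Pbl6ST-1 did not overlap. This adds nothing to the calls, since a call with 3 libraries in each line makes overlap unlikely, and the share over all transcripts was not counted.

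Among the shifted members that were higher, Os05t0399300-01, similar to chitinase, an enzyme that cleaves the chitin of fungal walls, had 5.30, 4.99 and 4.79 cpm in the double line, against 0.751, 0.823 and 0.897 cpm in NIL-Pbl6ST-1. It was also high in NIL-Prl5ST-1, with 6.01, 7.21 and 6.41 cpm, against 0.393, 1.34 and 1.11 cpm in Koshihikari. The libraries with the segment lay well above those without it in both pairs, and the double line was 6.14-fold higher than NIL-Pbl6ST-1 (log2 fold change 2.62 ± 0.20 SE, adjusted P = 1.3e-06). Os05t0428700-01, similar to the maize potassium channel ZMK2, had 16.8, 19.2 and 22.4 cpm in the double line, against 4.21, 4.20 and 3.52 cpm in NIL-Pbl6ST-1, and 14.4, 16.9 and 11.1 cpm in NIL-Prl5ST-1, against 4.94, 3.74 and 4.77 cpm in Koshihikari. Again no library with the segment overlapped those without it (4.85-fold between the double line and NIL-Pbl6ST-1, adjusted P = 2.91e-08). The next member to its right, Os05t0429000-01, similar to a hydroxymethyltransferase, was 2.52-fold higher in the double line than in NIL-Pbl6ST-1 (adjusted P = 3.88e-06).

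Low counts lay behind 2 other members of this group. Os05t0440300-01, similar to a protein linked to the S1 self-incompatibility locus, had 11, 22 and 17 counts in the double line, against 2, 4 and 0 in NIL-Pbl6ST-1, and 17, 28 and 32 in NIL-Prl5ST-1, against 1, 4 and 2 in Koshihikari. Os05t0443400-02, similar to a glucan endo-1,3-beta-glucosidase, had 10, 9 and 13 counts in the double line, against 0, 0 and 2 in NIL-Pbl6ST-1, and 13, 21 and 21 in NIL-Prl5ST-1, against 2, 4 and 10 in Koshihikari. Both passed the filter only through the lines with the segment, so these counts are a description, with no test, and their calls were lost without single libraries.

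Os05t0405000, the gene of pyruvate, orthophosphate dikinase, which makes phosphoenolpyruvate from pyruvate, was a different case. Os05t0405000-01 had 65.9, 59.8 and 69.1 cpm in the double line, against 22.9, 25.9 and 23.8 cpm in NIL-Pbl6ST-1, and 65.0, 75.9 and 62.7 cpm in NIL-Prl5ST-1, against 74.3, 51.3 and 60.5 cpm in Koshihikari. The libraries of NIL-Pbl6ST-1 alone were low, and those of the other 3 lines overlapped. The double line was 2.68-fold higher than NIL-Pbl6ST-1 (adjusted P = 2.91e-08), NIL-Pbl6ST-1 was lower than Koshihikari (log2 fold change -1.36, adjusted P = 8.02e-05), and the interaction of the segments was 1.30 on the log2 scale (adjusted P = 0.00425). Its second transcript, Os05t0405000-02, had nearly the same counts and the same rounded interaction, and is no separate measurement if the transcripts share reads.

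Among the shifted members that were lower, Os05t0429100-01, a hypothetical protein 1 place to the right of Os05t0429000-01, had 7.38, 8.20 and 6.28 cpm in the double line, against 104, 97.5 and 110 cpm in NIL-Pbl6ST-1, and 9.29, 8.17 and 8.80 cpm in NIL-Prl5ST-1, against 85.6, 89.4 and 77.8 cpm in Koshihikari. It kept about the same low level in all libraries with the segment, 14.1-fold lower in the double line than in NIL-Pbl6ST-1 (log2 fold change -3.82 ± 0.10 SE, adjusted P = 3.79e-13). Os05t0420000-01, another hypothetical protein, had 1.14, 1.02 and 0.791 cpm in the double line, against 11.2, 9.92 and 11.9 cpm in NIL-Pbl6ST-1, and was 11.1-fold lower (adjusted P = 3.57e-09). Os05t0406550-01, with a DUF3475 domain, had 0.520, 1.66 and 1.83 cpm in the double line, against 9.31, 9.32 and 10.5 cpm in NIL-Pbl6ST-1 (adjusted P = 3.88e-06). In each of them the double line lay below NIL-Pbl6ST-1 in every library.

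Immediately to the left of the chitinase-like Os05t0399300-01, the neighbouring Os05t0399200-01 went the other way. This member, similar to an endo-1,3;1,4-beta-D-glucanase that cleaves the mixed-linkage glucan of grass cell walls, had 0.0520, 0.794 and 0.494 cpm in the double line, against 3.19, 2.88 and 3.20 cpm in NIL-Pbl6ST-1, and 0.164, 0.212 and 0.356 cpm in NIL-Prl5ST-1, against 2.53, 3.60 and 2.58 cpm in Koshihikari. Its fitted log2 fold change in the double line against NIL-Pbl6ST-1 was -2.68, so the adjacent genes differed in opposite directions. It passed the filter only through NIL-Pbl6ST-1 and Koshihikari, so this is a description, with no test. Os05t0409500-00 was similar to MtN21, a nodulin of Medicago whose family holds membrane transporters. It had 0.156, 0.227 and 0.395 cpm in the double line, against 1.95, 1.28 and 1.54 cpm in NIL-Pbl6ST-1. Its libraries of the double line were below the filter level, so this is a description, with no test.

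**Figure D4:**
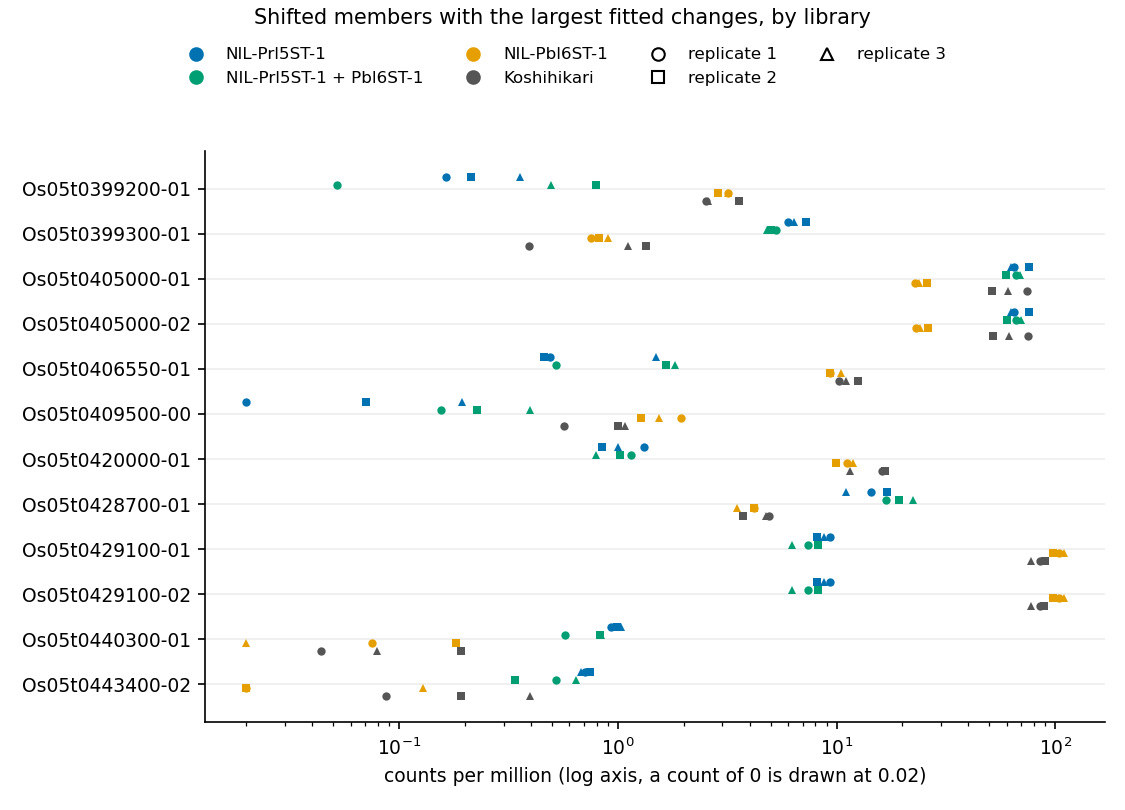
Level of the 12 shifted members named by size of change, 6 higher and 6 lower in the double line than in NIL-Pbl6ST-1, in each library (x axis, cpm on a log scale, with a count of 0 drawn at 0.02), coloured by line and shaped by replicate. NIL-Prl5ST-1 and the double line sit together and apart from NIL-Pbl6ST-1 and Koshihikari at most members, whereas at Os05t0405000 NIL-Pbl6ST-1 alone is low.

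Smaller shifts were seen in members with known roles. Os05t0423400-01, a PISTILLATA-like MADS-box gene of the class that specifies lodicules and stamens in grasses, had 22.6, 25 and 19.1 cpm in the double line, against 15.8, 15.4 and 12.9 cpm in NIL-Pbl6ST-1 (log2 fold change 0.59, adjusted P = 0.0172), and 27.5, 23.2 and 28.6 cpm in NIL-Prl5ST-1, against 13.2, 11.1 and 17.7 cpm in Koshihikari. Os05t0447200-01, an auxin transporter-like gene of the AUX1 family of influx carriers, had 7.80, 7.90 and 8.20 cpm in the double line, against 13.0, 11.5 and 11.5 cpm in NIL-Pbl6ST-1 (-0.60, adjusted P = 0.0149). Os05t0408900-01, similar to 1-deoxy-D-xylulose-5-phosphate synthase, the first enzyme of plastid isoprenoid synthesis, had 10.1, 10.7 and 11 cpm in the double line, against 23.3, 23.9 and 18.1 cpm in NIL-Pbl6ST-1 (-1.04, adjusted P = 6.64e-05). The MADS-box gene was higher and the other 2 were lower in the double line, without overlap. The call of Os05t0423400-01 was lost without any 1 replicate of NIL-Pbl6ST-1 or replicate 1 of the double line (adjusted P = 0.0530 to 0.0951), and that of Os05t0447200-01 without replicate 1 of NIL-Pbl6ST-1 (0.139) or replicate 1 of the double line (0.0521), whereas that of Os05t0408900-01 held without any 1 library.

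Other called members with annotated functions were these. Os05t0438800-01, similar to actin 1, was higher in the double line than in NIL-Pbl6ST-1 (log2 fold change 0.89, adjusted P = 0.00944), and Os05t0413200-01, a beta-tubulin gene of microtubules, was lower (-0.46, adjusted P = 0.0116), though its counts ran in parallel with those of the neighbouring locus Os05t0413332 and cannot be told apart from them. Os05t0400700-01, similar to the 19 kDa subunit of RNA polymerase II, was lower (-0.86, adjusted P = 3.27e-05), as was its neighbour Os05t0400800-01, similar to an isomerase of histidine synthesis (-1.04, adjusted P = 1.84e-05). Os05t0440250-01, a histone deacetylase superfamily gene, was higher (0.65, adjusted P = 0.0119), but its counts ran in parallel with those of the neighbouring hypothetical gene Os05t0440201-01. The calls of Os05t0400700-01 and Os05t0400800-01 held without any 1 library, while that of Os05t0438800-01 was lost without replicate 1 of NIL-Pbl6ST-1 or replicate 1 of the double line, that of Os05t0413200-01 without replicate 1 of NIL-Pbl6ST-1 and that of Os05t0440250-01 without replicate 2 or replicate 3 of NIL-Pbl6ST-1. The genes of this and the preceding paragraph, Os05t0429000-01 and Os05t0414200-01 were chosen for their roles or places after their values were seen.

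By the words of their descriptions, called members were of many kinds. Of 150 tested hypothetical transcripts 3 were higher and 24 lower in the double line than in NIL-Pbl6ST-1, beside 28 higher and 59 lower of all 571. Of 11 transcripts of the translation class none was higher and 4 were lower, all of them ribosomal: both transcripts of Os05t0459900, a gene of the large subunit protein L36, and both of Os05t0445500, an acidic ribosomal protein gene. Of 25 transcription factor transcripts 1 was higher, the PISTILLATA-like gene, and of 19 kinase transcripts 2 were higher, both of Os05t0405000, and 1 was lower. Of 8 resistance-like transcripts 1 was higher, Os05t0414200-01 with an NB-ARC domain, at 3.53, 3.51 and 4.20 cpm in the double line, against 1.80, 1.46 and 2.05 cpm in NIL-Pbl6ST-1 (log2 fold change 1.09, adjusted P = 0.013, and 0.0868 and 0.0778 without replicate 1 and replicate 2 of NIL-Pbl6ST-1). Of 7 cytochrome P450 and 5 transporter transcripts none was called in this comparison, where 2 P450 and 4 transporter transcripts had an unadjusted P below 0.05 and DESeq2 called no P450 and 1 transporter transcript.

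NIL-Prl5ST-1 and Koshihikari form a second pair that differs in the chromosome 5 segment and shares no library with the first. In it 57 members (9.98%) were called, 16 higher and 41 lower in NIL-Prl5ST-1, where 0.743% of all transcripts were called, 0.382% higher and 0.36% lower. Nothing is read from this share, since the interval was chosen on it. The count depended on single libraries: it was 32 without replicate 1 of Koshihikari, 180 without replicate 2 of Koshihikari, 35, 122 and 34 without replicate 1, 2 and 3 of NIL-Prl5ST-1, and 254 without replicate 2 of both lines. Of the 57 members, 44 (77.2%), which were 50.6% of the 87, were also called between the double line and NIL-Pbl6ST-1, 12 higher and 32 lower in both. All 57 had the same direction in both pairs, and 78 of the 87 did, which is a description because the interval was chosen with the values of both lines known. Outside the interval, 8 transcripts were called in both, 4.49% of 178 and 5.03% of 159. In the double line against Koshihikari 70 members (12.3%) were called, 23 higher and 47 lower, where 2.16% of all were called, 0.863% higher and 1.3% lower, and 46 and 42 were called without replicate 1 and replicate 2 of the double line.

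**Figure D5:**
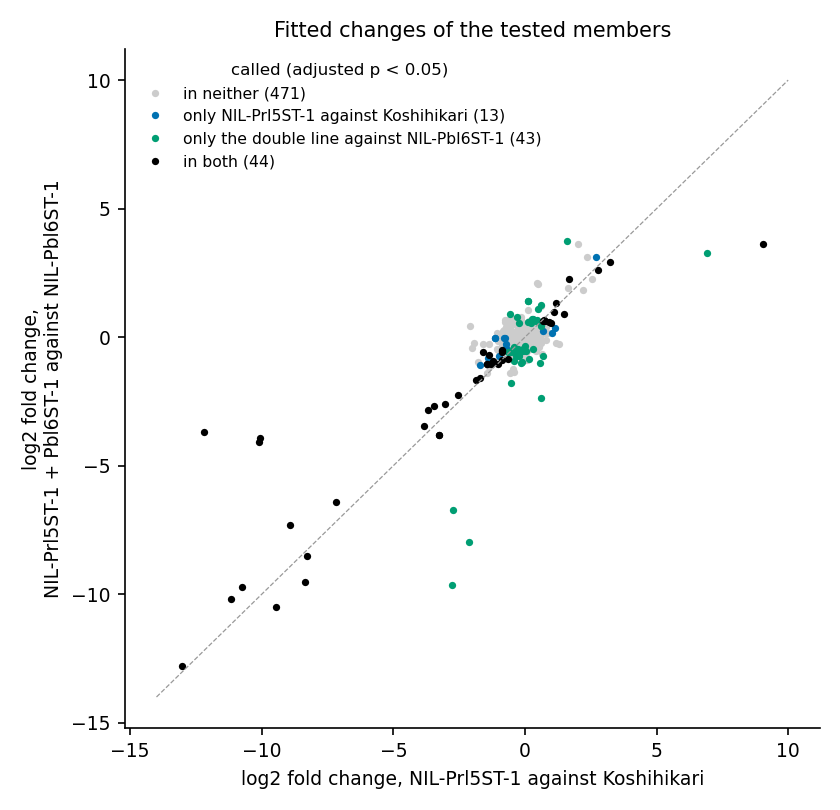
Fitted log2 fold change of each tested member in NIL-Prl5ST-1 against Koshihikari (x axis) and in the double line against NIL-Pbl6ST-1 (y axis), coloured by the comparison in which it was called, with a dashed line of equal change. The 44 members called in both lie to the lower left and the upper right, and fitted values beyond about -6 or 6 belong to transcripts with counts at or near 0 in a line and are no measure of size.

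Against NIL-Prl5ST-1, the double line differs by its labels in the chromosome 6 segment. This comparison shares the libraries of the double line with that against NIL-Pbl6ST-1. Of the members, 142 (24.9%) were called, 80 higher and 62 lower in the double line, where 25.3% of all transcripts were called, 13.2% higher and 12.1% lower, so the share in the interval was near the background. The count was 72 without replicate 1 and also 72 without replicate 3 of NIL-Prl5ST-1, and 93 and 77 without replicate 2 and replicate 3 of the double line. Besides the 3 transcripts at the left end, the members with the largest changes lay to the right of Os05t0449100 in 6 of 7 cases. Os05t0460000-01, similar to a 70 kDa heat shock cognate chaperone, had 106, 106 and 99.7 cpm in the double line and 143, 157 and 138 cpm in NIL-Pbl6ST-1, against 20.5, 30.4 and 22.1 cpm in NIL-Prl5ST-1 and 49.7, 44.3 and 39.9 cpm in Koshihikari. Both lines with the chromosome 6 segment were above both lines without it, and the double line was 4.24-fold higher than NIL-Prl5ST-1 (adjusted P = 1.17e-07). NIL-Pbl6ST-1 was 3.27-fold higher than Koshihikari (adjusted P = 3.81e-06).

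Os05t0461600-01, similar to NOP56, a nucleolar protein of the particles that guide the methylation of ribosomal RNA, had 24.9, 27.2 and 24.5 cpm in the double line, against 98.2, 63.1 and 109 cpm in NIL-Prl5ST-1, 55.7, 46.2 and 51.8 cpm in NIL-Pbl6ST-1 and 47.2, 81.2 and 52.6 cpm in Koshihikari. The double line was the lowest of the 4 and overlapped none of them, with log2 fold changes of -1.82 against NIL-Prl5ST-1 (adjusted P = 3.43e-06) and -1.0 against NIL-Pbl6ST-1 (adjusted P = 5.1e-06). A few places to its left, Os05t0459900-01, the L36 gene, had 469, 439 and 391 cpm in the double line, against 687, 639 and 835 cpm in NIL-Prl5ST-1, 863, 790 and 952 cpm in NIL-Pbl6ST-1 and 763, 936 and 727 cpm in Koshihikari. It too was lowest in the double line without overlap (-0.74 against NIL-Prl5ST-1 and -1.01 against NIL-Pbl6ST-1, adjusted P = 0.000831 and 2.52e-05).

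Os05t0454400-01 and Os05t0454500-01 are conserved hypothetical proteins that lie next to each other. Os05t0454400-01 had 1, 5 and 5 counts in the double line, against 13, 13 and 28 in NIL-Prl5ST-1, 23, 21 and 13 in NIL-Pbl6ST-1 and 9, 10 and 12 in Koshihikari. The double line was below every other library (fitted log2 fold change -2.03 against NIL-Prl5ST-1). Its counts there were below the filter's minimum of 10, so this is a description, with no test. Os05t0454500-01 had 7.02, 5.74 and 7.31 cpm in the double line and 7.62, 5.71 and 4.16 cpm in NIL-Pbl6ST-1, against 43.4, 18.2 and 41.7 cpm in NIL-Prl5ST-1 and 11.1, 28.8 and 20.5 cpm in Koshihikari. Here both lines with the chromosome 6 segment were low and overlapped each other (double line against NIL-Prl5ST-1, -2.36, adjusted P = 1.81e-05). Of the remaining members with large changes, Os05t0424300-01, a cytochrome P450 gene, was lower in the double line than in NIL-Prl5ST-1 (-1.38, adjusted P = 0.00812), Os05t0479475-00 was lower (-1.45, adjusted P = 0.01) and Os05t0469812-00 was higher (1.43, adjusted P = 0.0415), and the calls of Os05t0479475-00 and Os05t0469812-00 were lost without single libraries, among them replicate 3 of NIL-Prl5ST-1 and replicate 3 of the double line.

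Between the lines without the chromosome 5 segment, the share of members called was near that of all transcripts. This comparison shares 3 libraries with each of the others that involve NIL-Pbl6ST-1 or Koshihikari. In NIL-Pbl6ST-1 against Koshihikari, 49 members (8.58%) were called, 20 higher and 29 lower, where 8.49% of all transcripts were called, 3.07% higher and 5.42% lower. At least 2-fold changes were seen in 12 members (2.10%), against 2.29% of all, and the median log2 fold change was 0.02 over the members and -0.00 over all. The count was 29, 136 and 28 without replicate 1, 2 and 3 of Koshihikari, and 20, 20 and 26 without replicate 1, 2 and 3 of NIL-Pbl6ST-1. The largest changes were those of Os05t0460000-01, Os05t0454500-01 and Os05t0441500 given above and of Os05t0427200-01, similar to a beta-1,3-galactosyltransferase, with 7, 3 and 2 counts in NIL-Pbl6ST-1, against 19, 13 and 15 in Koshihikari. The libraries of this low transcript did not overlap (log2 fold change -1.85, adjusted P = 0.0205), and its call was lost without replicate 1 of Koshihikari or without replicate 2 or 3 of NIL-Pbl6ST-1.

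The change with the chromosome 5 segment was compared between the lines with and without the chromosome 6 segment by an interaction term over all 12 libraries. It was called in 31 members (5.43%), where 3.93% of all transcripts were called. Besides Os05t0405000 and the 3 transcripts of the left end, it was called for Os05t0461600-01 (-1.58 on the log2 scale, adjusted P = 0.0277) and Os05t0459900-01 (-0.84, adjusted P = 0.0364). Both had their lowest level in the double line. For Os05t0454400-01, also lowest there, it was -3.0, a description with no test, as the double line was below the filter level. At Os05t0429100-01 it was -0.55 (adjusted P = 0.0481), beside log2 fold changes of -3.82 in the double line against NIL-Pbl6ST-1 and -3.27 in NIL-Prl5ST-1 against Koshihikari.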

How the data were processed

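RNA-seq of young panicles gave 12 libraries, 3 for each of 4 lines. The table that the authors deposited holds raw counts, 1 value for each library and each annotated rice transcript. The submitters' processing notes name bcl2fastq, Bowtie and the genome build IRGSP-1.0, while the counting tool, the use of strand, the treatment of reads that match several places and the annotation release are not given in the sources used here. Transcripts of a locus therefore may share reads, and a read of a donor allele that differs from the reference may be missing.

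Each comparison used the 6 libraries of its 2 lines. Transcripts that passed filterByExpr of edgeR (minimum count 10, minimum total 15, over the 12 libraries) were fitted with TMM normalisation and the quasi-likelihood test of edgeR 4.0.16 (limma 3.58.1, R 4.3.3), with Benjamini-Hochberg adjustment over all transcripts tested and a threshold of 0.05. The fitted log2 fold changes carry a prior count of 0.125. An interaction term was fitted over 12 libraries. Lower bounds of folds use a floor of 3 counts per library, which covers counting error only. Alternatives were DESeq2 1.42.0, its size factors, no filter, the exact test of edgeR, 1 fit of all libraries, a replicate block, sums per locus and leaving out each library. The fits were tested on simulated data.

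Members, lists and sections were chosen with earlier results of these data known. Members named were the first and last lost or gained transcripts of each line with their neighbours, the lost and gained transcripts, the 6 shifted members with the largest rise and the 6 with the largest fall without overlap between the double line and NIL-Pbl6ST-1, the 10 largest changes against NIL-Prl5ST-1, the 6 largest of NIL-Pbl6ST-1 against Koshihikari, and 3 transcripts on each side of each limit. Classes were read from words of the descriptions. No library pair of a line had counts equal within sampling noise. Sequences and coordinates were not used here.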

Additional observations from a re-analysis of the deposited data

Results flagged for a closer look

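The change with the chromosome 5 segment differed between lines with and without the chromosome 6 segment at 11 named transcripts, by the interaction term over 12 libraries (the change in the double line against NIL-Pbl6ST-1 minus that in NIL-Prl5ST-1 against Koshihikari, log2 scale, edgeR). At the left end it was 5.91 for Os05t0389900-01 (adjusted P = 0.0457), 8.39 for Os05t0390932-01 (adjusted P = 0.0379) and 6.09 for Os05t0392900-01 (adjusted P = 0.0446). All 3 had 0 counts throughout NIL-Prl5ST-1 and in replicate 1 of the double line, so these values depend on the prior count and are no measure of size. Nothing is read from their P values, as these transcripts were picked for being lost in NIL-Prl5ST-1. Just inside the left limit it was 1.33 for Os05t0380300-01 (adjusted P = 0.046), which was called in neither single comparison.

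For Os05t0405000-01 and Os05t0405000-02, transcripts of the same locus, it was 1.3 each (adjusted P = 0.00425). For Os05t0429100-01 and Os05t0429100-02 it was -0.552 and -0.553 (adjusted P = 0.0481), with the same direction of change in both pairs of lines. Further right it was -3.0 for Os05t0454400-01 (adjusted P = 0.0324), -0.838 for Os05t0459900-01 (adjusted P = 0.0364), a gene named for its role after its values were seen, and -1.58 for Os05t0461600-01 (adjusted P = 0.0277). Over all members the interaction was called at 5.43%, against 3.93% of all transcripts.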

How the results depend on the processing

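In NIL-Prl5ST-1 against Koshihikari, 57 members were called, against 224 at an unadjusted P below 0.05, 94 with DESeq2, 107 without the filter, 148 in 1 fit of all 12 libraries, 126 with the exact test of edgeR, 32 to 180 with 1 library left out and 254 without replicate 2 of both lines, which was chosen after seeing the data. In the double line against Koshihikari, 70 were called, against 184 unadjusted and 42 to 79 with 1 library left out. In NIL-Pbl6ST-1 against Koshihikari, 49 were called, against 165 unadjusted, 78 with the exact test and 20 to 136 with 1 library left out. Between the double line and NIL-Pbl6ST-1, 87 were called, against 232 unadjusted, 134 without the filter, 135 with the exact test and 50 to 103 with 1 library left out. Between the double line and NIL-Prl5ST-1, 142 were called, against 234 unadjusted and 72 to 201 with 1 library left out. The double line had 2 gained members, but 1 where the line needed at least 30 counts, also with at most 10 counts in Koshihikari. With 1 library left out, 1 to 3 members were gained in NIL-Prl5ST-1 and 2 to 4 in the double line, and 0 to 2 were lost in NIL-Pbl6ST-1, with a span of 0 to 2.

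Replicate numbers did not pair the libraries, since deviations of same-numbered libraries correlated at -0.31 to 0.36. With the replicate number as a block, 31 members were called in NIL-Prl5ST-1 against Koshihikari and 79 between the double line and NIL-Pbl6ST-1. The 59 values of named members were recomputed 690 times: 626 kept direction and side of the threshold, 64 kept direction and missed the threshold, and none reversed. Leaving out 1 library accounted for misses at 18 of the values, and 10 misses came in the fit of all 12 libraries, 4 with the block and 1 with DESeq2, which gave no adjusted P in 18 cases. The floor of 3 counts was worth 0.0971 to 0.192 cpm. The rules also needed at least 10 counts in each library of the line that held the transcript. Loss or gain of members below that count was not detectable at this depth.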
